A study of Mus musculus with 11 samples.

Results

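The integrated stress response and the unfolded protein response were followed through a fixed list of 34 gene symbols, out of 55228 symbols in the deposited tables. All 34 symbols were found, and all 34 passed the filter on low counts. They fall into an ATF4 amino acid arm of 10 genes (Asns, Psat1, Phgdh, Shmt2, Mthfd2, Slc7a11, Slc7a5, Slc3a2, Slc7a3 and Cth), 11 regulators and effectors (Atf3, Atf4, Atf5, Ddit3, Trib3, Chac1, Sesn2, Vldlr, Ppp1r15a, Nupr1 and Stc2), and an endoplasmic reticulum (ER) chaperone arm of 13 genes (Hspa5, Hsp90b1, Xbp1, Dnajb9, Sdf2l1, Herpud1, Pdia4, Calr, Hyou1, Creld2, Manf, Edem1 and Sel1l). The RNA was taken from EN52.9.1 (CTCF-AID), a mouse embryonic stem cell line. CTCF organises chromosome loops through its zinc fingers, and here it carries a degron, so that auxin (indole-3-acetic acid) leads to its degradation. The study compared 4 groups that all carry the degron: EV cells without auxin (EV untreated, 3 libraries), EV cells with 500 µM auxin (EV auxin, 2 libraries), auxin-treated cells with FL CTCF (FL auxin, 3 libraries) and auxin-treated cells with CTCF bearing the H373R substitution (H373R auxin, 3 libraries, titled ZF4). A further EV auxin library was not analysed here. No auxin-treated cells without the degron were analysed, so effects of auxin and of CTCF loss cannot be told apart, and every group is labelled as this 1 line. The cells grew in serum medium with LIF, non-essential amino acids, pyruvate and β-mercaptoethanol.

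Stress sensors slow translation by phosphorylating eIF2α, and the same event raises translation of the transcription factor ATF4. ATF4 acts on genes of amino acid uptake, serine and one-carbon metabolism and on feedback genes such as Trib3 and Ddit3. Misfolded protein in the ER also activates IRE1, which splices Xbp1 mRNA, and ATF6, and these act on ER chaperones and on genes that send misfolded protein to the proteasome. ATF4 translation and Xbp1 splicing cannot be read from counts per gene, so the values below are total RNA levels.

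The total count per library was between 13465241 and 29902246, and 16420 genes were tested. A gene is called changed at an adjusted p under 0.05 in edgeR, and log2 fold changes are given with the standard error (SE) of that model. Levels are CPM, read counts scaled to library size by TMM, unless TPM, a length-scaled measure, is named. No label says that the libraries of a group came from separate cultures, so p-values measure the spread between these libraries. EV untreated replicate 1 stood apart. Its counts differed from those of its replicates 2 and 3 with a chi-square per degree of freedom of 16 and 15.1, against 1.96 between replicates 2 and 3, and its deviation from the group mean correlated with the GC content of genes (r = 0.559, across genes). Over the 34 genes and 6 comparisons, leaving it out added 23 calls and ended 2, while the share of all tested genes called after auxin went from 20.7% to 33.3%. Counts per arm, and calls described below that change, are therefore also given without it. The 8 embryonic stem cell markers summed to 5380 to 5960 CPM over all libraries, with members called in both directions. Against EV untreated 3 were higher and 3 lower in FL cells, and 1 higher and 4 lower in H373R cells. The lower ones included Nanog (−0.44 and −0.32) and Zfp42 (−0.33 and −0.51). Klf4 went the other way, from 331 to 353 CPM in EV untreated to 420 to 426 in FL and 435.5 to 455 in H373R auxin. Dppa5a was at 597 to 667 CPM in EV untreated, 748 to 842 in FL auxin and 656.7 to 710.5 in H373R auxin. The 7 primitive endoderm markers summed to 28.2 to 30.7 CPM in EV untreated, 31.2 to 31.7 in EV auxin, 101 to 110 in FL auxin and 62.3 to 69.3 in H373R auxin. The 5 fibroblast markers summed to 57.6 to 65.3 CPM in EV untreated, 55.1 to 59.9 in EV auxin, 74.6 to 88.4 in FL auxin and 71.2 to 77.9 in H373R auxin. No marker of these 3 lists was at 0 in all libraries. Primitive endoderm markers thus moved in every comparison with FL or H373R cells, all 7 being called higher than in either EV group and 4 being lower in H373R than in FL cells. Of the 3 fibroblast markers tested, 2 were higher in FL and 1 in H373R cells than in EV auxin, and between H373R and FL cells none was called (adjusted p between 0.128 and 0.624). The part of these markers in the results below was not tested. In RNA from whole cultures, a change in all cells and a change in the share of some cells cannot be told apart.

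Promoters of 29 of the 34 genes were in the RefSeq table for GRCm38.p6, as 250 bases before to 50 bases after each start site. Slc7a5, Slc7a3, Cth, Hyou1 and Manf were absent from it, so their promoters were not searched. The C/EBP-ATF element, the motif through which ATF4 acts, was searched as TGATGNAA on both strands and was found in 3.97% of all 32851 promoters. It was found at Asns and Slc7a11, 2 of the 7 amino acid genes in the table. Of the 11 regulators it was found at Atf3, Chac1, Nupr1, Trib3 and Vldlr, and of the 11 ER genes in the table at Herpud1. The ER stress element, bound by ATF6 with NF-Y, was searched as CCAAT, 9 bases and CCACG. It was found in 0.119% of all promoters and at Calr, Creld2, Hsp90b1 and Hspa5, which are 4 of the 11 ER genes in the table. A second form, ATTGG, 1 base and CCACG, was found in 0.0365% of promoters and at Herpud1. The motif TGACGTGG, bound by XBP1 and ATF6, was found in 0.676% of promoters and at none of the 29 genes. These matches describe letters in a window and say nothing of binding. The stretches below show both kinds of element in genes that changed in at least 1 comparison, 5′ to 3′ on the strand of the gene, with the elements in capitals. The stretches at Asns and Nupr1 are limited to 30 bases because GENCODE places them in an exon.
Asns (chr6:7693214-7693243, minus strand): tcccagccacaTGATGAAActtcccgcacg
Chac1 (chr2:119351019-119351086, plus strand): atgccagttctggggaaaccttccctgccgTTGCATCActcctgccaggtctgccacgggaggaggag
Nupr1 (chr7:126625562-126625591, minus strand): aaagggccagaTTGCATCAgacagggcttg
Creld2 (chr15:88819490-88819568, plus strand): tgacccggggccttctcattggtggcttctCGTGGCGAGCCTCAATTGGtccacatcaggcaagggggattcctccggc
Herpud1 (chr8:94386287-94386417, plus strand): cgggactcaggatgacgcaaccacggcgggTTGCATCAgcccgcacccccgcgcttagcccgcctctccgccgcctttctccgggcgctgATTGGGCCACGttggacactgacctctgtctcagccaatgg
Hsp90b1 (chr10:86705510-86705686, minus strand): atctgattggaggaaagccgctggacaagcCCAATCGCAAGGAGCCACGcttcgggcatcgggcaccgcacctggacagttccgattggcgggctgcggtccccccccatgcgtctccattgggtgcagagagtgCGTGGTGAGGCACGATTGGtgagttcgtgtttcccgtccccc
At Chac1 and Nupr1 the C/EBP-ATF element lay on the opposite strand, 193 and 110 bases before the start site, while at Asns it lay on the gene's own strand, 23 bases before it. The match at Trib3 lay after its start site and is not shown. Herpud1 held a C/EBP-ATF element and the second form of the ER stress element within 1 window, and Hsp90b1 held the first form in both orientations.

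After auxin, 5 of the 10 amino acid genes were lower, 5 of the 11 regulators were higher, and 3 of the 13 ER genes were called. With FL or H373R CTCF, 7 of the 10 amino acid genes were higher than in EV auxin. Of the regulators 2 were called with FL and 3 with H373R CTCF against EV auxin, and of the ER genes 4 and 0. EV auxin against EV untreated had 14 of 34 genes called, 7 higher and 7 lower, beside 20.7% of all tested genes called, 11.3% higher and 9.4% lower. FL auxin against EV auxin had 13 called, 9 higher and 4 lower, beside 24.5% of tested genes, 11.1% higher and 13.4% lower. H373R auxin against EV auxin had 10 called, 9 higher and 1 lower, beside 21.7% of tested genes, 10% higher and 11.7% lower. H373R auxin against FL auxin had 3 called, 2 higher and 1 lower, beside 5.96% of tested genes, 3.14% higher and 2.82% lower. FL auxin against EV untreated had 17 called, 11 higher and 6 lower, beside 36.9% of tested genes, 17.7% higher and 19.2% lower. H373R auxin against EV untreated had 17 called, 10 higher and 7 lower, beside 44.4% of tested genes, 22.3% higher and 22.1% lower. As shares of the list these counts were 41.2%, 38.2%, 29.4%, 8.82%, 50% and 50%, in the same order. The share was farthest above the background after auxin and nearest to it for H373R against FL and against EV untreated. The genes were chosen with earlier results of these data known, so these shares are a description and no independent evidence. Comparisons against EV auxin share its 2 libraries, including the first, in which EV auxin is the other side, so opposite signs between them are not independent of each other.

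**Figure D1:**
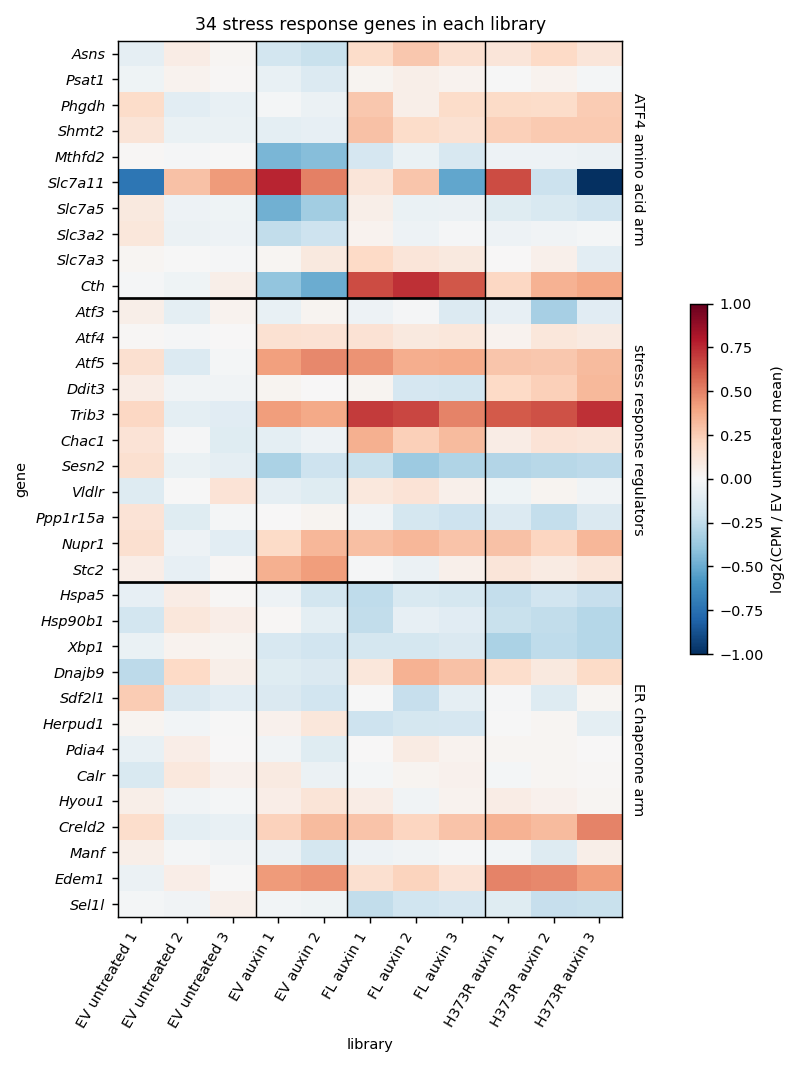
Each row is 1 of the 34 genes and each column 1 of the 11 libraries. Colour gives the log2 ratio of TMM-scaled CPM to the mean of the EV untreated libraries, and the scale ends at 1 in either direction, so that the lowest value of Slc7a11, a gene of 4 to 16 counts per library, is drawn at the end of the scale. In the upper block Mthfd2, Slc7a5, Slc3a2 and Cth are blue in both EV auxin libraries, and in the middle block Atf5 and Trib3 are red in every auxin-treated library.

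In the amino acid arm 5 of 10 genes fell after auxin and none rose (median log2 fold change −0.15, beside 0.01 over all tested genes). The 5 that fell were Asns, Mthfd2, Slc7a5, Slc3a2 and Cth. Against EV auxin, 7 of 10 genes were higher with FL CTCF (median 0.26, beside −0.01 over all genes) and 7 were higher with H373R CTCF (median 0.25, beside 0.00), and none was lower in either. The shares of all tested genes called were 20.7% after auxin, and 24.5% for FL and 21.7% for H373R against EV auxin. Against EV untreated, 4 rose and 1 fell in each of FL and H373R cells. These calls were 50% of the arm in each, beside 36.9% and 44.4% of all tested genes. Without EV untreated replicate 1, the counts of higher and lower genes were 0 and 6 after auxin, beside 33.3% of all genes called, 8 and 0 for FL and 7 and 0 for H373R against EV auxin, beside 35.5% and 33%, and 0 and 3 for H373R against FL, beside 14.2%. Against EV untreated they were then 5 and 1 for FL and 3 and 1 for H373R, beside 47.2% and 54.7%.

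Cth, which makes cysteine in the transsulfuration pathway (chr3:157894248-157925077, minus strand, GRCm38), showed the widest range of the called genes. Its level was 50.3, 49.2 and 53.0 CPM in EV untreated, 38.7 and 36.0 in EV auxin, 79.9, 84.4 and 78.3 in FL auxin and 58.6, 64.8 and 66.4 in H373R auxin. No 2 groups overlapped, with EV auxin lowest and FL auxin highest. The log2 fold change was −0.45 after auxin (SE 0.07, adjusted p = 0.000272). Cth was 1.11 higher on the log2 scale in FL than in EV auxin (SE 0.07, adjusted p = 1.03e-07) and 0.76 higher in H373R than in EV auxin (SE 0.07, adjusted p = 1.2e-05). Between H373R and FL CTCF the difference was −0.35 (SE 0.06, adjusted p = 0.00217), the 1 call of the arm in that comparison. Slc7a5 and Slc7a3 were also called there without EV untreated replicate 1 (−0.14 and −0.17, adjusted p = 0.0298 and 0.0174). Cth also lay above EV untreated, by 0.67 in FL and 0.32 in H373R cells (adjusted p = 1e-06 and 0.000529).

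Mthfd2, a mitochondrial folate enzyme of one-carbon metabolism (chr6:83305691-83325908, minus strand), was at 204, 201 and 202 CPM in EV untreated, 148 and 151 in EV auxin, 180, 193 and 181 in FL auxin and 195, 196 and 194 in H373R auxin. EV auxin lay below every other library, and the FL and H373R groups lay below EV untreated. The change after auxin was −0.44 (SE 0.05, adjusted p = 1e-05), and FL and H373R cells were 0.31 and 0.38 above EV auxin (adjusted p = 0.000397 and 0.000118). Against EV untreated, Mthfd2 was still lower in FL cells (−0.13, adjusted p = 0.0232), a call lost without EV untreated replicate 2 or 3 or FL replicate 1 or 3 (adjusted p between 0.0561 and 0.092). In H373R cells the difference from EV untreated was −0.05 (adjusted p = 0.324).

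Asns, which makes asparagine and is a widely used ATF4 target, was at 543, 608 and 586 CPM in EV untreated, 511 and 495 in EV auxin, 656, 697 and 646 in FL auxin and 631, 665 and 628 in H373R auxin. EV auxin was lowest, and all 6 libraries with added CTCF lay above all 3 untreated libraries. The fall after auxin was small (−0.20, SE 0.06, adjusted p = 0.0174) and was lost without EV untreated replicate 2 or 3 or either EV auxin library (adjusted p between 0.0509 and 0.13). The rise over EV auxin was 0.41 with FL CTCF (SE 0.06, adjusted p = 0.000142) and 0.35 with H373R CTCF (SE 0.06, adjusted p = 0.000609). Over EV untreated it was 0.20 and 0.15 (adjusted p = 0.00513 and 0.0253), and the second call was lost without EV untreated replicate 1 or 3 or any 1 H373R library (adjusted p between 0.0508 and 0.0928).

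**Figure D2:**
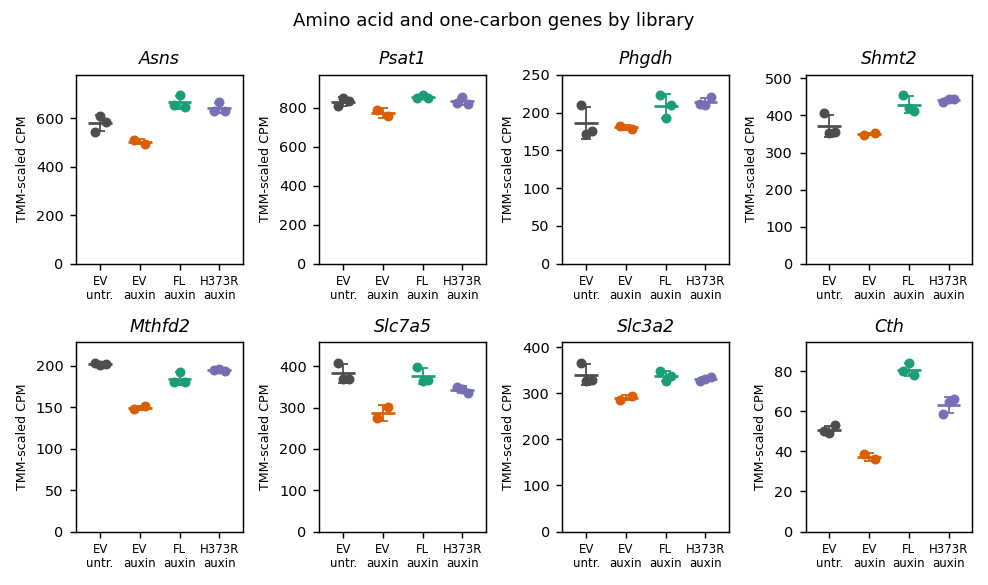
TMM-scaled CPM of 8 amino acid and one-carbon genes in the 11 libraries, by group. Points are libraries, horizontal lines group means and error bars the SD over libraries. EV auxin is the lowest group for Asns, Mthfd2, Slc7a5, Slc3a2 and Cth, and Cth is highest in FL auxin, at 78.3 to 84.4 CPM.

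Slc7a5 carries large neutral amino acids and pairs with Slc3a2, its heavy chain. Slc7a5 was at 409, 369 and 370 CPM in EV untreated, 274 and 300 in EV auxin, 398, 364 and 366 in FL auxin and 351, 344 and 335 in H373R auxin. EV auxin lay below all other libraries, and FL auxin overlapped with EV untreated. H373R auxin lay below EV untreated (−0.16, SE 0.05, adjusted p = 0.0298). That call was lost without H373R replicate 2 or 3 (adjusted p between 0.0833 and 0.0841). Slc7a5 fell after auxin (−0.41, SE 0.06, adjusted p = 0.000193) and was higher than EV auxin with FL CTCF (0.39, SE 0.06, adjusted p = 0.000407) and with H373R CTCF (0.26, SE 0.06, adjusted p = 0.00793). The call of H373R against EV auxin was lost without EV auxin replicate 1 (adjusted p = 0.134). On its chromosome, 8, the median over tested genes was −0.12 in FL against EV auxin, opposite in sign to Slc7a5. Slc3a2 was at 326 to 367 CPM in EV untreated, 286 and 295 in EV auxin, 327 to 349 in FL auxin and 328 to 335 in H373R auxin. It moved in the same order as its partner by −0.23 after auxin (adjusted p = 0.0086) and by 0.22 and 0.19 over EV auxin (adjusted p = 0.0112 and 0.0245). The Slc3a2 calls were lost without EV auxin replicate 1 in all 3 comparisons (adjusted p = 0.094, 0.104 and 0.175). The FL call was also lost without EV auxin replicate 2 (adjusted p = 0.0518), and the H373R call without EV auxin replicate 2 or H373R replicate 2 or 3 (adjusted p between 0.0505 and 0.175).

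Shmt2, which turns serine into glycine in mitochondria, was at 407, 354 and 355 CPM in EV untreated, 347 and 352 in EV auxin, 456, 421 and 413 in FL auxin and 437, 444 and 446 in H373R auxin. It was not called after auxin (−0.09, adjusted p = 0.347), and both groups with added CTCF lay above all EV libraries. With GC and length trends removed it was called lower after auxin (−0.21, adjusted p = 0.000272). The rises over EV untreated, 0.21 with FL and 0.25 with H373R CTCF (adjusted p = 0.00855 and 0.00192), were then not called. That with H373R CTCF was 0.01 (adjusted p = 0.796). Shmt2 rose over EV auxin by 0.30 with FL and 0.34 with H373R CTCF (adjusted p = 0.00313 and 0.00155). Phgdh, which starts serine synthesis, was at 178 to 183 CPM in EV auxin and 211 to 220 in H373R auxin, a rise of 0.25 (adjusted p = 0.036) that was lost without any 1 of 6 libraries (adjusted p between 0.0507 and 0.2), namely either EV auxin library, FL replicate 3 or any H373R library. Its difference of 0.21 in FL cells from EV auxin (adjusted p = 0.0633) was called without EV untreated replicate 1 (0.23, adjusted p = 0.00134). The difference of FL cells from EV untreated (0.17, adjusted p = 0.0742) was also called without that replicate (0.27, adjusted p = 0.000163). Psat1, the next enzyme, rose only with FL CTCF (0.15, adjusted p = 0.0302) among the 6 comparisons, a call lost without any 1 EV auxin or FL library (adjusted p between 0.0572 and 0.195). Psat1 was also lower after auxin without EV untreated replicate 1 (−0.14, adjusted p = 0.0246). Slc7a3, a carrier of basic amino acids, was called, with all libraries, in FL against EV untreated (0.14, adjusted p = 0.0476), a call lost without any 1 library other than EV untreated replicate 1 and H373R replicates 2 and 3 (adjusted p between 0.0541 and 0.189). Slc7a11, the cystine carrier, had 4 to 16 counts per library, and at this depth no difference was detectable (0.57 after auxin, SE 0.46).

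Among the 11 regulators, 5 rose after auxin (Atf4, Atf5, Trib3, Nupr1 and Stc2) and Sesn2 fell (median 0.01). With FL CTCF, Chac1 rose and Stc2 fell relative to EV auxin (median −0.03). With H373R CTCF, Ddit3 and Trib3 rose and Stc2 fell relative to EV auxin (median −0.02). Against EV untreated, 5 rose and 1 fell with FL CTCF and 4 rose and 2 fell with H373R CTCF (medians 0.09 and 0.11). The called share of the regulators was 54.5% after auxin, beside 20.7% of all tested genes. For FL and H373R against EV auxin it was 18.2% and 27.3%, beside 24.5% and 21.7%. For FL and H373R against EV untreated it was 54.5% each, beside 36.9% and 44.4%. Without EV untreated replicate 1 the counts of higher and lower genes were 5 and 1 after auxin, 3 and 1 for FL and 3 and 3 for H373R against EV auxin, and 1 and 1 for H373R against FL. The shares of all tested genes called were then 33.3%, 35.5%, 33% and 14.2%, in the same order. Against EV untreated the counts without that replicate were 5 and 1 in FL and 6 and 1 in H373R cells, beside 47.2% and 54.7%.

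Atf4 RNA was at 269, 265 and 267 CPM in EV untreated, 296 and 295 in EV auxin, 295, 286 and 288 in FL auxin and 273, 288 and 284 in H373R auxin. All auxin-treated libraries lay above the untreated ones, by little. The change after auxin was 0.15 (SE 0.05, adjusted p = 0.03). It was lost without EV untreated replicate 2 or 3 or any 1 of the EV auxin or H373R libraries (adjusted p between 0.0525 and 0.194). With trends over GC content and length removed it was 0.05. FL and H373R cells differed from EV auxin by −0.03 and −0.07 (adjusted p = 0.697 and 0.312).

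Atf5, a related factor, was at 50.2, 40.7 and 44.2 CPM in EV untreated, 59.8 and 62.5 in EV auxin, 61.2, 57.9 and 58.2 in FL auxin and 54.4, 54.2 and 55.9 in H373R auxin. The untreated libraries were lowest, and H373R lay below the other auxin-treated groups. Atf5 rose by 0.44 after auxin (SE 0.07, adjusted p = 0.000548) and stayed above EV untreated with FL CTCF (0.39, adjusted p = 0.000376) and with H373R CTCF (0.28, adjusted p = 0.00302). With GC and length trends removed the last of these was −0.03 (adjusted p = 0.63). H373R differed from EV auxin by −0.16 (adjusted p = 0.142, and 0.0246 without EV untreated replicate 1). On the chromosome of Atf5, 7, the median over tested genes was 0.11 in FL and 0.10 in H373R cells against EV untreated. Atf5 shares 4.11% of its exon bases with Nup62 on the opposite strand, and no source used here says if reads were counted by strand.

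Trib3, a pseudokinase that feeds back on ATF4, was at 90.4, 73.4 and 72.6 CPM in EV untreated, 105 and 102 in EV auxin, 127, 125 and 111 in FL auxin and 120, 122 and 130 in H373R auxin. EV untreated was lowest, EV auxin came next, and FL and H373R overlapped at the top. Trib3 rose by 0.39 after auxin (SE 0.09, adjusted p = 0.00449). Over EV untreated it rose by 0.61 with FL CTCF (SE 0.08, adjusted p = 2.6e-05) and by 0.65 with H373R CTCF (SE 0.08, adjusted p = 8e-06), the largest rises among the 34 genes against untreated cells apart from Cth in FL cells. Over EV auxin, the difference was 0.23 with FL (adjusted p = 0.0709, and 0.00152 without EV untreated replicate 1) and 0.27 with H373R CTCF (adjusted p = 0.0383), a call lost without any 1 EV auxin or H373R library (adjusted p between 0.0601 and 0.209).

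Ddit3, which encodes the factor CHOP, was called between the CTCF versions with every alternative tried. It was at 47.1, 43.7 and 43.8 CPM in EV untreated, 45.7 and 45.0 in EV auxin, 45.7, 39.9 and 39.5 in FL auxin and 51.5, 52.8 and 56.2 in H373R auxin. The H373R libraries lay above all others, and the other groups overlapped. H373R cells were 0.36 above FL cells (SE 0.07, adjusted p = 0.00385) and 0.25 above EV untreated (SE 0.06, adjusted p = 0.00451). The rise of 0.24 over EV auxin (adjusted p = 0.028) was lost without either EV auxin library or H373R replicate 3 (adjusted p between 0.103 and 0.171). After auxin alone the difference was 0.01 (adjusted p = 0.921). Ddit3 shares 3.97% of its exon bases with Mars on the opposite strand, a more abundant gene.

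Stc2, a secreted glycoprotein, was highest in EV auxin. It was at 107, 96.4 and 103 CPM in EV untreated, 130 and 136 in EV auxin, 101, 97.7 and 106 in FL auxin and 111, 108 and 111 in H373R auxin. EV auxin lay above all others, and FL overlapped with EV untreated. Stc2 rose by 0.39 after auxin (SE 0.06, adjusted p = 0.000133) and was lower than EV auxin by −0.39 with FL CTCF (SE 0.06, adjusted p = 0.000172) and −0.28 with H373R CTCF (SE 0.06, adjusted p = 0.00253), the last lost without EV auxin replicate 2 (adjusted p = 0.0511). The tested genes of its chromosome, 11, had medians of −0.16 and −0.11 in these latter comparisons. In H373R cells against EV untreated the difference (0.11, adjusted p = 0.0965) was called without EV untreated replicate 1 (0.13, adjusted p = 0.0224).

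Chac1, which degrades glutathione, was at 28.4, 25.6 and 23.7 CPM in EV untreated, 24.07 and 24.95 in EV auxin, 33.0, 30.5 and 32.1 in FL auxin and 27.2, 28.4 and 28.1 in H373R auxin. FL auxin lay above all other libraries. The rise was 0.38 over EV auxin (SE 0.08, adjusted p = 0.00317) and 0.30 over EV untreated (SE 0.07, adjusted p = 0.00346), and H373R differed from FL by −0.20 (adjusted p = 0.122). Without EV untreated replicate 1 the last difference was called (−0.21, adjusted p = 0.0162), as were rises of 0.19 and 0.17 in H373R cells over EV auxin and EV untreated (adjusted p = 0.0282 and 0.0244). Nupr1, a small chromatin protein of stress responses, was at 36.9 to 44.5 CPM in EV untreated and at 45.4 to 50.1 in all auxin-treated libraries. Its rise of 0.26 after auxin (adjusted p = 0.0285) was lost without any 1 of 5 libraries (EV untreated 2 or 3, EV auxin 2, H373R 1 or 3, with adjusted p between 0.0524 and 0.362), while those of 0.30 and 0.27 in FL and H373R cells were called over EV untreated (adjusted p = 0.00402 and 0.00499). Nupr1 also lies on chromosome 7, where the medians over tested genes were 0.11 and 0.10 in these latter comparisons. Sesn2, a leucine sensor that restrains mTORC1, was at 141 to 168 CPM in EV untreated and at 117 to 130 in auxin-treated libraries. It fell by 0.27 after auxin (adjusted p = 0.015, and 0.17 without EV auxin replicate 1) and was lower than EV untreated in FL and H373R cells (−0.30 and −0.28, adjusted p = 0.00188 and 0.00194). Ppp1r15a, the subunit that directs a phosphatase to eIF2α, was called, with all libraries, in H373R against EV untreated alone (−0.18, adjusted p = 0.0494), a call lost without any 1 library other than EV untreated replicate 2 and FL replicate 1 (adjusted p between 0.056 and 0.185). It was instead called against EV auxin without EV untreated replicate 1 (−0.19, adjusted p = 0.0273). Atf3, at 6.6 to 8.7 CPM, and Vldlr, at 15.5 to 18.6 CPM, were called in none of the 6 comparisons with all libraries, and Vldlr was called in FL against EV auxin without EV untreated replicate 1 (0.21, adjusted p = 0.0349).

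**Figure D3:**
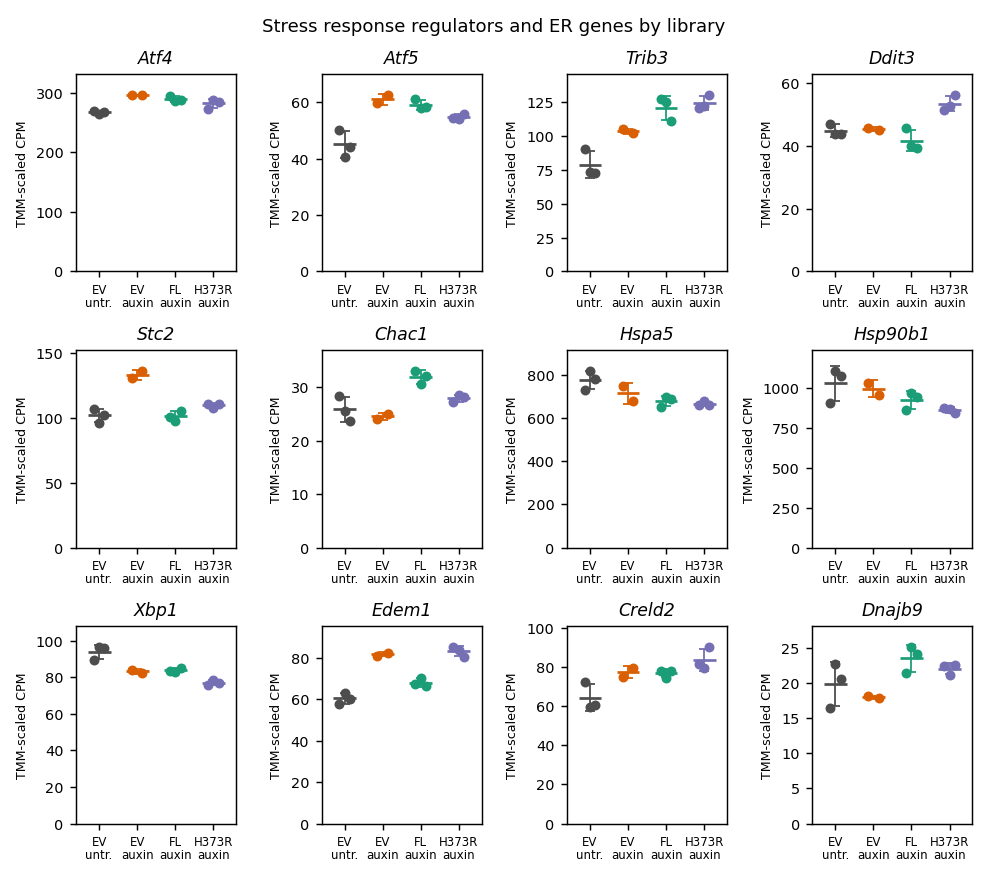
TMM-scaled CPM of 6 regulators and 6 ER genes in the 11 libraries, by group. Points are libraries, horizontal lines group means and error bars the SD over libraries. Ddit3 is highest in H373R auxin (51.5 to 56.2 CPM), Stc2 is highest in EV auxin, and Edem1 is high in EV auxin and H373R auxin but not in FL auxin.

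In the ER arm 3 of 13 genes were called after auxin (Creld2 and Edem1 higher, Xbp1 lower, median −0.05). With FL CTCF, Dnajb9 was higher and Herpud1, Edem1 and Sel1l were lower than EV auxin (median −0.01). With H373R CTCF none of the 13 was called against EV auxin in edgeR (median −0.01). At an unadjusted p under 0.05 there were 3, DESeq2 called 0 and limma on log2(TPM + 1) called 1. Against EV untreated, 2 rose and 4 fell in each of FL and H373R cells (medians −0.04 and −0.03). These calls were 46.2% of the arm in each, beside 36.9% and 44.4% of all tested genes. After auxin the called share of the arm was 23.1%, beside 20.7%. For FL and H373R against EV auxin it was 30.8% and 0%, beside 24.5% and 21.7%. Without EV untreated replicate 1 the counts of higher and lower genes were 2 and 5 after auxin, 2 and 3 for FL, 1 and 2 for H373R against EV auxin, and 1 and 1 for H373R against FL, beside 33.3%, 35.5%, 33% and 14.2% of all genes called. The count of falls after auxin in this arm thus depended on that library. Against EV untreated the counts without it were 2 and 5 in FL and 2 and 4 in H373R cells, beside 47.2% and 54.7%. Sdf2l1, Pdia4, Calr, Hyou1 and Manf were called in none of the 6 comparisons with all libraries. Without that library Pdia4 was called after auxin (−0.13, adjusted p = 0.0444) and in FL against EV auxin (0.13, adjusted p = 0.0264).

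Hspa5, the central ER chaperone BiP, was at 731, 817 and 782 CPM in EV untreated, 748 and 681 in EV auxin, 651, 697 and 688 in FL auxin and 659, 678 and 663 in H373R auxin. EV auxin overlapped with EV untreated only through untreated replicate 1, and the FL and H373R libraries lay below all 3 untreated ones. The change after auxin was −0.12 (adjusted p = 0.161) with all libraries and −0.18 (adjusted p = 0.0115) without that replicate. Hspa5 was lower than EV untreated with FL CTCF (−0.20, SE 0.05, adjusted p = 0.0077) and with H373R CTCF (−0.22, SE 0.05, adjusted p = 0.00257). Hsp90b1, the ER form of HSP90, was at 907, 1108 and 1078 CPM in EV untreated, 1036 and 960 in EV auxin, 865, 972 and 948 in FL auxin and 878, 868 and 844 in H373R auxin. With all libraries it was called in H373R against EV untreated (−0.26, SE 0.07, adjusted p = 0.00588), and no H373R library reached the lowest untreated one. Without EV untreated replicate 1, its lowest untreated value, it was also lower after auxin (−0.14, adjusted p = 0.0437), in FL against EV untreated (−0.24, adjusted p = 0.000378) and in H373R against EV auxin (−0.21, adjusted p = 0.00233).

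Xbp1, the factor spliced by IRE1, was at 89.6, 96.4 and 96.0 CPM in EV untreated, 84.1 and 82.4 in EV auxin, 83.2, 83.1 and 85.1 in FL auxin and 75.6, 78.6 and 76.9 in H373R auxin. Every auxin-treated library lay below the untreated ones, and H373R was lowest. The fall was 0.17 after auxin (adjusted p = 0.0277) and was lost without EV untreated replicate 2 or 3 or either EV auxin library (adjusted p between 0.0683 and 0.162). With H373R CTCF Xbp1 was −0.29 from EV untreated (SE 0.05, adjusted p = 0.000156), and with FL CTCF −0.17 (adjusted p = 0.0122, lost without EV untreated replicate 2 or 3, at 0.0554 at most). Between H373R and FL it was −0.12 (adjusted p = 0.159, and 0.0364 without EV untreated replicate 1). On the chromosome of Xbp1, 11, the median over tested genes was −0.12 in FL and −0.08 in H373R cells against EV untreated.

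Edem1, which passes misfolded glycoproteins on for degradation (chr6:108828641-108859356, plus strand), went the other way. It was at 57.8, 63.0 and 60.2 CPM in EV untreated, 80.9 and 82.4 in EV auxin, 67.3, 70.2 and 66.3 in FL auxin and 85.0, 83.9 and 80.5 in H373R auxin. H373R overlapped with EV auxin, FL lay between them and EV untreated, and EV untreated was lowest. The rise was 0.44 after auxin (SE 0.06, adjusted p = 4.1e-05) and 0.46 in H373R cells over EV untreated (SE 0.05, adjusted p = 3e-06). FL cells were −0.27 from EV auxin (SE 0.06, adjusted p = 0.00313, and 0.0534 without EV auxin replicate 2), and H373R cells were 0.29 above FL cells (SE 0.05, adjusted p = 0.00262). The difference between H373R and EV auxin was 0.03 (SE 0.06, adjusted p = 0.79).

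Creld2, a secreted ER protein with an ER stress element shown above, was at 72.0, 59.6 and 60.7 CPM in EV untreated, 75.1 and 79.6 in EV auxin, 78.0, 74.3 and 77.8 in FL auxin and 81.4, 79.3 and 90.0 in H373R auxin. All auxin-treated libraries lay above the untreated ones. The rise was 0.27 after auxin (adjusted p = 0.0251, lost without EV untreated replicate 2 or 3 or either EV auxin library, up to 0.26), 0.26 in FL cells over EV untreated (adjusted p = 0.0109, and 0.0516 without EV untreated replicate 3) and 0.38 in H373R cells (adjusted p = 0.000457). The other genes with that element, Hspa5, Hsp90b1 and Calr, did not rise in any comparison.

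Herpud1 and Sel1l serve ER-associated degradation, and Dnajb9 is a co-chaperone of BiP. Herpud1 was at 31.6 to 32.9 CPM in EV untreated, 33.1 and 34.8 in EV auxin, 27.9 to 28.7 in FL auxin and 30.04 to 32.64 in H373R auxin. FL auxin lay below all other libraries (−0.26 from EV auxin, SE 0.07, adjusted p = 0.00887, and 0.132 without EV auxin replicate 2). On the chromosome of Herpud1, 8, the median over tested genes was −0.12 in that comparison. Sel1l was at 81.9 to 86.9 CPM in EV untreated, 81.4 and 82.3 in EV auxin, 70.8 to 74.6 in FL auxin and 71.3 to 77.0 in H373R auxin, lower than EV untreated in both groups with added CTCF (−0.20 and −0.19, adjusted p = 0.00482 and 0.00515). Dnajb9 was at 17.9 and 18.2 CPM in EV auxin and 21.4 to 25.1 in FL auxin, a rise of 0.38 (SE 0.12, adjusted p = 0.0244) that was lost without either EV auxin library or FL replicate 2 or 3 (adjusted p between 0.0684 and 0.135). Dnajb9, without EV untreated replicate 1, was also lower after auxin (−0.27, adjusted p = 0.0144) and higher in H373R than in EV auxin (0.30, adjusted p = 0.00443). The Sel1l fall against EV auxin in FL cells (−0.17, adjusted p = 0.0381) was lost without any 1 library other than EV untreated replicates 1 and 3 (adjusted p between 0.0517 and 0.171), and that in H373R cells (−0.16, adjusted p = 0.0545) was called without EV untreated replicate 1 (adjusted p = 0.0204).

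**Figure D4:**
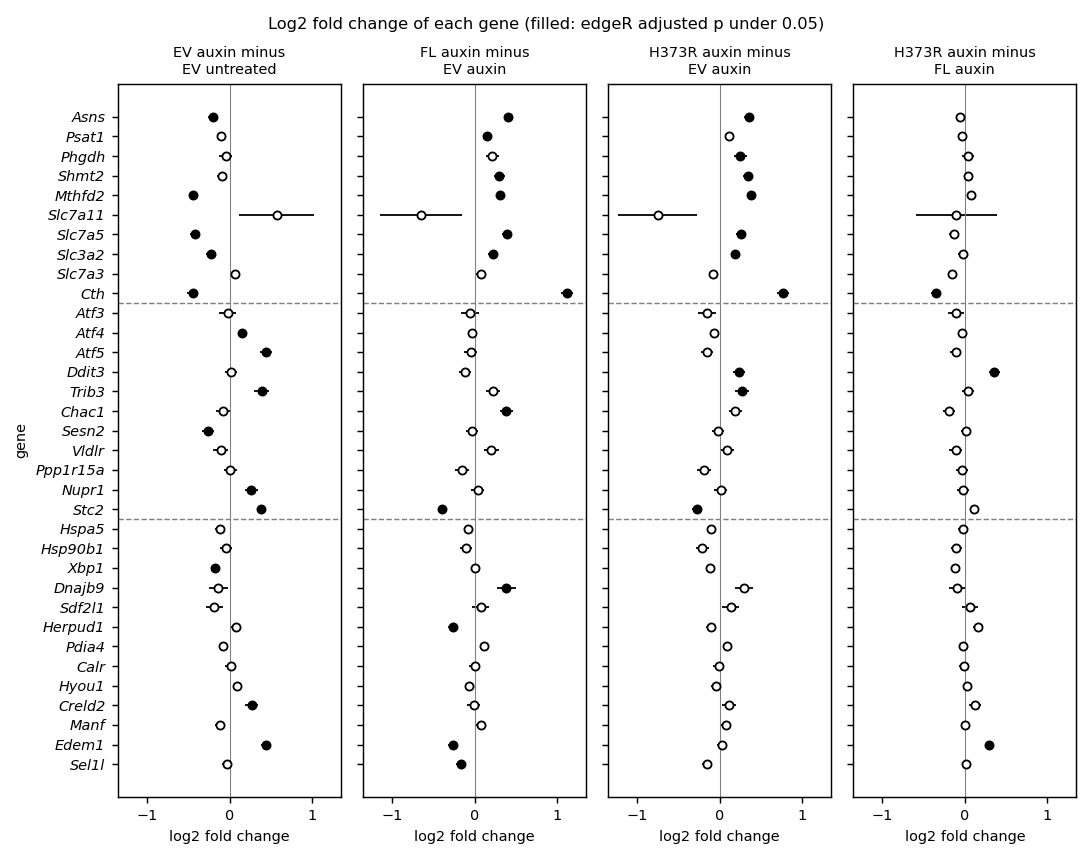
Log2 fold change of each of the 34 genes in 4 comparisons, with bars of 1 SE, where filled points have an edgeR adjusted p under 0.05. In the upper block filled points lie left of 0 after auxin and right of 0 for FL and H373R against EV auxin, while the H373R against FL panel holds 3 filled points, Cth, Ddit3 and Edem1.

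The arms were set side by side as the mean log2 fold change of the 10 amino acid genes minus that of the 13 ER genes, as a description with no test. This difference was −0.13 after auxin, 0.28 in FL and 0.18 in H373R cells against EV auxin, and −0.09 between H373R and FL cells. The last was −0.145 without H373R replicate 1, −0.045 without H373R replicate 3 and −0.056 without FL replicate 1. Against EV untreated it was 0.14 in FL cells and 0.05 in H373R cells, the latter being −0.003 without H373R replicate 1 and 0.097 without H373R replicate 3. Library by library, relative to the EV untreated mean, it was 0.01, −0.02 and 0.02 in EV untreated, −0.15 and −0.13 in EV auxin, 0.21, 0.16 and 0.06 in FL auxin, and 0.10, 0.08 and −0.06 in H373R auxin. With Slc7a11 included, the EV auxin libraries were lowest, the FL libraries were all above EV untreated, and the H373R libraries lay on both sides of it. The SD within groups was 0.06. Slc7a11, with its few counts, pulled against the rest of its arm, and without it, an alternative chosen after seeing the data, the difference was −0.21 after auxin, 0.38 for FL and 0.29 for H373R against EV auxin. Per library, the mean of the 9 remaining amino acid genes was −0.21 in both EV auxin libraries, 0.11 to 0.17 in FL auxin and 0.06 to 0.10 in H373R auxin, while the ER mean stayed between −0.04 and 0.02 in all 11 libraries. In H373R replicates 1, 2 and 3 the mean of the 9 genes was 0.058, 0.095 and 0.069, each above its ER mean (0.012, −0.015 and 0.007). Slc7a11 had 16, 8 and 4 counts in these libraries. The arms had similar GC content (median 49.5% and 50% of transcript bases), and the regulators were richer, at 55.5%.

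**Figure D5:**
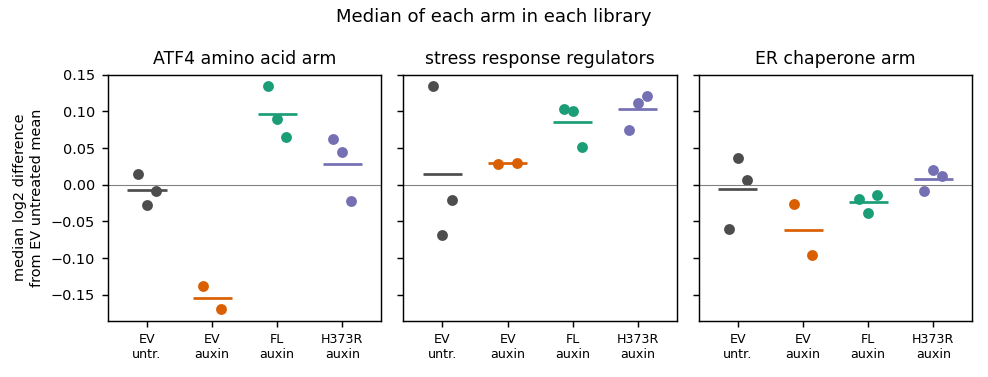
Median over the genes of each arm of the log2 difference from the EV untreated mean, for each of the 11 libraries, with a line at each group's mean. EV auxin libraries lie at −0.14 and −0.17 in the amino acid arm, below all others, while the ER arm stays between −0.10 and 0.04.

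On the TPM scale, which allows genes to be compared, the ER chaperones and amino acid enzymes were abundant and the regulators mostly low. In EV untreated Hsp90b1 had 961 TPM, Calr 894, Asns 796, Psat1 735 and Hspa5 690, as means of 3 libraries, while Atf4 had 425, Trib3 139, Ddit3 98.5 and Atf3 14.6. Of the ER arm Dnajb9 had 29.4, Edem1 35.1, Sel1l 36.8 and Herpud1 51.9, and of the amino acid arm Cth had 68.5. In EV auxin Asns had 703 TPM and in FL auxin 890, where it exceeded Hsp90b1 at 841. In H373R auxin Asns, at 874, also exceeded Hsp90b1, at 798. Slc7a11 was lowest at 0.13 TPM in EV untreated.

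Related genes outside the 34 were taken from lists of the same pathways. After auxin, none of 9 sensors and upstream factors was called, including Eif2ak4, the amino acid sensor GCN2 (−0.15, adjusted p = 0.1), and Ern1, which encodes IRE1 (0.20, adjusted p = 0.14). In FL and in H373R cells against EV auxin 1 sensor rose and 2 fell, and Ern1 was lower in each (−0.58 and −0.38, adjusted p = 0.000505 and 0.00761). Of 17 further ATF4-linked genes 2 rose and 3 fell after auxin, 7 rose and 2 fell with FL and 6 rose and 3 fell with H373R CTCF against EV auxin. Mthfd1l, the mitochondrial partner of Mthfd2 in the folate cycle, fell most after auxin, from 244, 233 and 231 CPM to 142 and 143 (−0.73, SE 0.05, adjusted p = 8.18e-08). It was 0.24 and 0.17 higher with FL and H373R CTCF than in EV auxin (adjusted p = 0.00329 and 0.0246). At 164 to 176 CPM in FL auxin and 158 to 162.5 in H373R auxin, it stayed below all untreated libraries. Cbs, which acts before Cth in transsulfuration, rose instead (0.50, adjusted p = 0.0012), from 38.8, 30.3 and 31.4 CPM to 46.1 and 49.1. It was at 50.3 to 57.7 CPM in FL auxin and 71.9 to 77.1 in H373R auxin. Of 12 aminoacyl-tRNA synthetases 1 fell after auxin (Lars, −0.17, adjusted p = 0.0134), and against EV auxin 4 rose and 1 fell with FL and 2 rose and 1 fell with H373R CTCF. Of 24 further ER genes 1 rose and 1 fell after auxin (Os9 0.29 and Pdia6 −0.15), and against EV auxin 4 rose and 1 fell with FL and 3 rose and none fell with H373R CTCF. In other stress lists, 3 of 6 NRF2 targets rose after auxin, among them Srxn1 (0.57, adjusted p = 2.86e-06) and Gclm (0.49, adjusted p = 9.19e-06), 3 of 7 immediate early genes rose, among them Fos (0.45, adjusted p = 0.00356), and of 9 heat shock genes Bag3 rose and Hspb1 fell. Against EV auxin, 0 NRF2 targets rose and 2 fell with FL CTCF, and 1 rose and 1 fell with H373R CTCF. Of the immediate early genes 0 rose and 2 fell with FL, and 1 rose and 1 fell with H373R CTCF, and of the heat shock genes 3 rose and 1 fell with FL and 1 rose and 1 fell with H373R CTCF. The shares of all tested genes called in these comparisons, 20.7% after auxin, 24.5% for FL and 21.7% for H373R against EV auxin, are the background for these counts.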

How the data were processed

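RNA from 11 libraries was analysed. Per the labels, column-purified RNA went into directional libraries sequenced on a NovaSeq instrument. The authors deposited raw counts per gene symbol and TPM (length-scaled abundance). The submitters' processing notes list featureCounts, Subread 2.0.3, DESeq2, mm10 and GRCm38 without roles. The strand setting and annotation are not given in the sources used here.

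The main test of the counts was that of edgeR 4.0.16 under R 4.3.3 (TMM scaling, filterByExpr, a group-means model over all 11 libraries, quasi-likelihood test, Benjamini-Hochberg adjustment over 16420 genes, threshold 0.05). Members, arms and further lists were chosen with earlier results of these data known, so no list is independent evidence. Genes described in full were Atf4, Ddit3, Asns, Hspa5 and Xbp1, and the called members with the largest changes of each arm in each comparison; others are given more briefly. Other settings tried were DESeq2 1.42.0, limma 3.58.1 on log2(TPM + 1) and log2(TPM + 0.1) with and without a TPM filter, scaling by RLE or the upper quartile, no count filter, a minimum of 10 counts per library, a fit of only the compared groups, a replicate block, removal of GC and length trends, and each library left out. Gene positions, exon overlap, GC content and length came from GENCODE M21 (GRCm38) and promoters from RefSeq (GRCm38.p6). The scripts were tested on simulated counts.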

Additional observations from a re-analysis of the deposited data

How the results depend on the processing

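Of 74 calls of the 34 genes over the 6 comparisons, 39 were kept in all 22 alternatives, among them every call of Cth, Chac1 and Hspa5, and 35 were lost in at least 1. The number of called genes after auxin (14) was 8 with limma on log2(TPM + 1) without a filter and 7 with only the libraries compared, and 8 to 19 when 1 library was left out. For FL against EV auxin (13) leaving out 1 library gave 7 to 17. For H373R against EV auxin (10) the count was 5 with limma without a filter, 19 with GC and length trends removed, 16 with only the libraries compared, and 5 to 16 when 1 library was left out. For H373R against FL (3) it was 9 with GC and length trends removed, 5 with only the libraries compared, and 3 to 7 when 1 library was left out. For FL against EV untreated (17) it was 11 with only the libraries compared and 11 to 19 when 1 library was left out. With GC and length trends removed, 20 genes were called after auxin, 6 higher and 14 lower. In that setting the counts of higher and lower genes were 13 and 4 for FL and 12 and 7 for H373R against EV auxin. They were 2 and 7 for H373R against FL, and against EV untreated 11 and 9 for FL and 10 and 12 for H373R. Of all 16420 tested genes 4997, 5874, 5078, 2238, 7354 and 8151 were then called, in the same order. The cause of these moves was not tested, except that comparing only the libraries of 2 groups uses fewer samples.

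The arm difference after auxin (−0.134) was −0.212 with at least 10 counts, −0.212 and −0.213 with limma at pseudocounts of 1 and 0.1, −0.213 without Slc7a11 and −0.008 with the regulators added to the amino acid arm. For FL against EV auxin (0.276) these were 0.376, 0.372, 0.375, 0.376 and 0.145. For H373R against EV auxin (0.182) they were 0.286, 0.284, 0.286, 0.286 and 0.084, and 0.25 with limma without a filter and 0.266 with medians. The first 3 settings also drop Slc7a11 from the arm. With GC and length trends removed, H373R against EV untreated changed sign for Phgdh (−0.026), Atf4 (−0.103), Atf5 (−0.031) and Vldlr (0.206). The cause was not tested.

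Pairing of same-numbered libraries was not settled by these values. Of 15 pairs 3 correlated above 0.1 (r between −0.087 and 0.282). Among libraries of other groups, however, 7 of 11 libraries correlated best with a library of their own number. With the replicate block the called genes were 12, 15, 11, 3, 19 and 17, in the order of the report, and the arm differences −0.159, 0.3, 0.206, −0.094, 0.141 and 0.047.

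EV auxin had 2 libraries, so its comparisons rest on the spread pooled over groups, and Slc7a11, at 4 to 16 counts, is limited by depth.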
